A study of Mus musculus with 15 samples.

Results

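miR-124 and miR-9 are the microRNAs most closely tied to the making of neurons, and each hairpin gives a mature strand from its 5p and its 3p arm. The 4 strands described here, mmu-miR-124-3p, mmu-miR-124-5p, mmu-miR-9-5p and mmu-miR-9-3p, were taken by name from the 1122 mouse miRNAs on the array. The cells were EpiSC, stem cells of the mouse epiblast, from Pitx3-GFP mice, whose green reporter follows Pitx3, a gene of midbrain dopaminergic neurons. Treated cells, labelled DA cells by the submitters, received the morphogens SHH and FGF8 from day 5 and were sampled at day 9 and day 14, control cells were kept without them and sampled on the same days, and day 5 cells were taken before any morphogen. All 5 groups share the EpiSC origin and the first 5 days of culture, and each has 3 arrays. The labels number the arrays of a group without saying whether they came from separate cultures, so p-values measure only the spread between these arrays.

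miR-124 is among the most abundant miRNAs of mature neurons, where it lowers Ptbp1 and so releases neuronal splicing, and its genes are silenced by the repressor REST outside the nervous system. miR-9 appears earlier, in neural progenitors, where it acts on regulators of progenitor growth such as Nr2e1 (TLX) and Hes1, and it stays on in many neurons. Its arms are both used: miR-9-5p targets REST and miR-9-3p targets the REST partner CoREST. The main miR-124 product is the 3p strand, and miR-124-5p is the strand that is mostly discarded.

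The 2 mature miR-9 strands are shown because their seeds, the bases that choose targets, differ between the arms. RefSeq (GRCm38.p6) holds the mature sequences of these 2 of the 4 members. Capitals mark the seed, bases 2 to 8 from the 5′ end.
miR-9-5p: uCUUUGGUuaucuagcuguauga
miR-9-3p: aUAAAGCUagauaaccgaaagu
Both strands are made from 3 loci, Mir9-1 (chr3:88215598-88215686), Mir9-2 (chr13:83738814-83738885) and Mir9-3 (chr7:79505264-79505353), all on the plus strand. The hairpins are shown with the 5p and 3p strands in capitals because the mature strands are the same at every locus, so a probe for a mature strand cannot tell the loci apart.
Mir9-1: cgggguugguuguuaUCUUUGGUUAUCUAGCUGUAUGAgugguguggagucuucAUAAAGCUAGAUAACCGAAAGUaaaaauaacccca
Mir9-2: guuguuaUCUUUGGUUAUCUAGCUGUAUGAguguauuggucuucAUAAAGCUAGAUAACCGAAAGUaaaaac
Mir9-3: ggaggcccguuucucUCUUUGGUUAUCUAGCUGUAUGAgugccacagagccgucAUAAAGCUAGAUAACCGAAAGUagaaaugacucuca

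Levels are log2 signals after each array was scaled to the 75th percentile of the probes above background everywhere, and a common floor was set at -4.27. Levels of different probes are not on one scale, so each strand is compared only with itself. The arrays had 238 to 333 miRNAs above background, and no spot was saturated. They lay on 2 slides: slide 1 held the day 5 and treated day 9 arrays and replicates 1 and 2 of treated day 14, and slide 2 held replicate 3 of treated day 14 and all control arrays. The labelling spike-in was lower on slide 2 (2.71 to 2.86, log10) than on slide 1 (2.97 to 3.11). The pluripotency miRNAs of the miR-302 and miR-290 families had a summed scaled signal of 0.81 to 0.88 in treated and 0.72 to 0.79 in control day 9 cells, against 2.48 to 3.45 in day 5 cells, and would be 0.519 with all 10 of them at the floor. In RNA from whole cultures, fewer cells holding a miRNA and less of it per cell cannot be told apart.

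miR-124-3p, the neuronal strand, was lower in treated than in control cells on both days. At day 9 its level was 1.31, 1.34 and 1.34 on the treated arrays, against 2.30, 2.34 and 2.26 on the control arrays. At day 14 it was 2.17, 2.27 and 2.33 in treated cells, against 3.19, 3.40 and 3.30 in control cells. The arrays of the 2 conditions did not overlap on either day. In these values the levels of treated cells at day 14 were close to those of control cells at day 9, but the gap between them depends on the scaling. The difference was -0.97 at day 9 (SE 0.07, limma adjusted p = 5.6e-08), 0.51 times the control level, and -1.04 at day 14 (SE 0.07, limma adjusted p = 3.7e-08), 0.49 times the control level. At day 5 its level was 1.07, 0.97 and 1.11, below every later array.

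miR-9-5p, the strand that targets REST, was also lower in treated cells, by less at day 14 than at day 9 in these values. At day 9 its level was 2.04, 2.12 and 2.02 in treated cells, against 2.79, 2.93 and 2.73 in control cells. At day 14 it was 3.04, 3.21 and 2.89 in treated cells, against 3.30, 3.60 and 3.45 in control cells. The conditions were apart on both days, though at day 14 the highest treated array lay just under the lowest control array. The difference was -0.76 at day 9 (SE 0.11, limma adjusted p = 3.7e-05) and -0.40 at day 14 (SE 0.11, limma adjusted p = 0.0057). With quantile normalization the day 14 difference was -0.24 and no longer called (limma adjusted p = 0.066). At day 5 the level was 0.67, 0.53 and 0.36, the lowest of all arrays.

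miR-9-3p, the strand that targets CoREST, was at 0.01, -0.06 and -0.12 in treated cells at day 9, against 0.82, 1.16 and 0.93 in control cells. At day 14 it was at 1.11, 1.54 and 1.05 in treated cells, against 2.12, 2.30 and 2.44 in control cells. No treated array reached the control arrays of its day. The difference was -1.03 at day 9 (SE 0.13, limma adjusted p = 1.5e-05) and -1.05 at day 14 (SE 0.13, limma adjusted p = 1.9e-05), 0.49 and 0.48 times the control level. At day 5 it was at -1.39, -1.28 and -1.48.

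miR-124-5p, the passenger strand, lay at the edge of detection. Its probe was above background on 8 of 15 arrays and read at most 24.7 intensity units. It was above background on 0 of 3 treated arrays at day 9, all at the floor, and on 3 of 3 control arrays, at -3.63, -3.72 and -3.88. It was thus at least 1.28-fold lower in treated cells at day 9 (limma adjusted p = 0.00049; measured means -4.27 in treated and -3.74 in control cells), a call lost with a normexp background (limma adjusted p = 0.35), with a floor 4 times higher, which leaves both groups at the floor, and, at the same fitted difference, with slide as a block (limma adjusted p = 0.056). At day 14 it was above background on 2 of 3 treated arrays, all 3 set to the floor, and on 1 of 3 control arrays, at -4.27, -4.23 and -4.16, and the difference was -0.05 (95% interval -0.27 to 0.16, limma adjusted p = 0.70). At day 5 it was above background on 2 of 3 arrays, at -3.76, -3.77 and -4.16. Among the 306 miRNAs tested it was included only because of its control day 9 arrays, so that its day 9 call is not separate support. Its second probe was above background on 2 of 15 arrays.

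**Figure D1:**
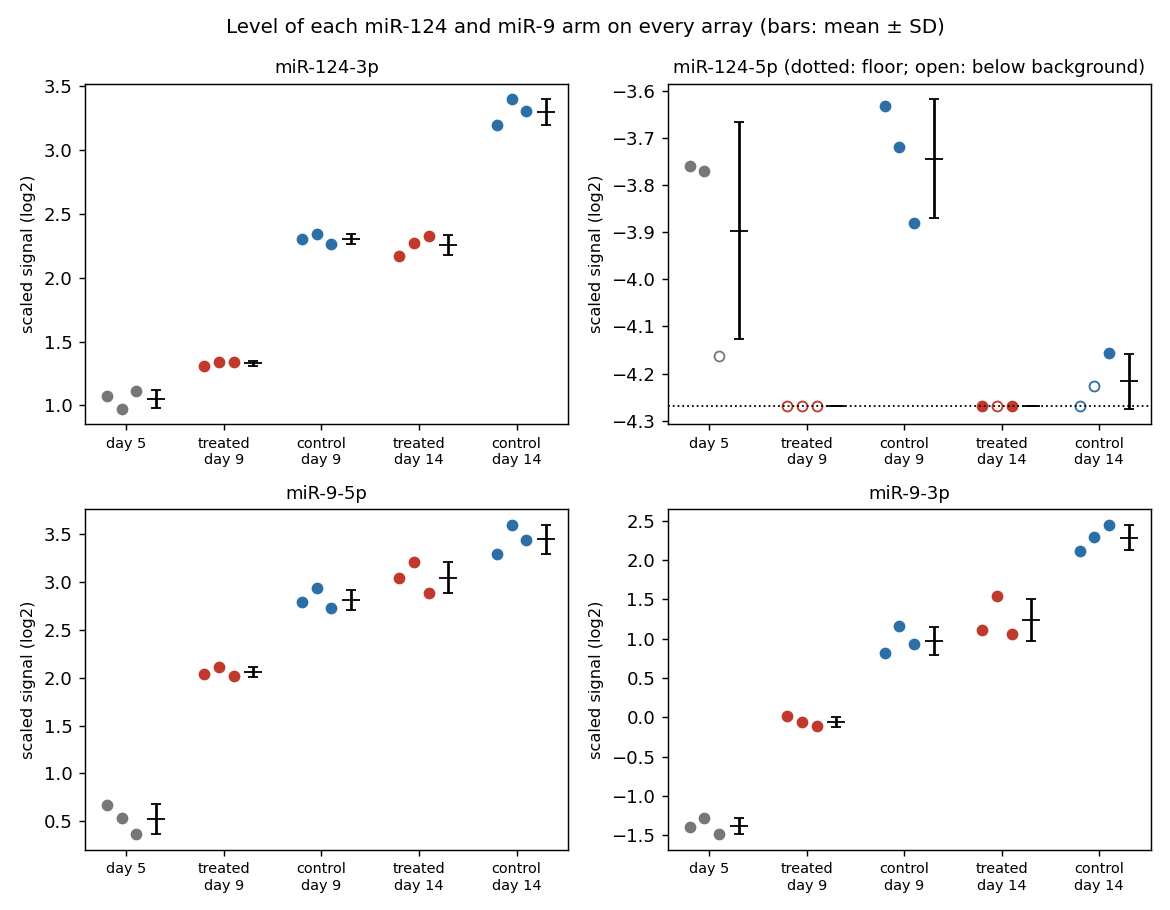
Scaled log2 signal (y axis) of each strand on every array, by group (x axis); red is treated, blue control and grey day 5, and the bar beside each group is mean ± SD (n = 3). For miR-124-3p, miR-9-5p and miR-9-3p the treated arrays lie under the control arrays on both days, while miR-124-5p lies at the floor of -4.27 on all 6 treated arrays; open points were below background.

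Apart from miR-124-5p, which is left out of this count because it was tested only through control day 9, 3 of 3 members were called lower in treated cells at day 9, where 15% of the 306 tested miRNAs were called lower, and 3 of 3 at day 14, where 14.4% were. The same 3 had treated arrays wholly below the control arrays, as did 19.9% of all miRNAs at day 9 and 14.7% at day 14. Most calls ran the other way: 124 miRNAs (40.5%) were called higher and 46 lower at day 9, and 119 (38.9%) higher and 44 lower at day 14. That split depends on the scaling, with 41 higher and 121 lower at day 9 and 37 higher and 77 lower at day 14 when the percentile was taken over all probes. Quantile normalization gave 65 and 89 at day 9 and 69 and 65 at day 14, and median scaling 71 and 85, then 76 and 64. The median change of all 306 miRNAs moved with it, between -0.25 and 0.25 at day 9 and between -0.08 and 0.21 at day 14. Set against that median, miR-124-3p lay at -1.32 to -0.96 at day 9 and at -1.34 to -0.77 at day 14 over the 4 scalings. For miR-9-3p the same distance was -1.37 to -1.02 at day 9 and -1.35 to -1.12 at day 14, and for miR-9-5p it was -1.10 to -0.77 and -0.70 to -0.24. In order of change, with the lowest first, miR-9-3p, miR-124-3p and miR-9-5p stood at ranks 4, 5 and 8 at day 9 and at ranks 3, 4 and 27 at day 14.

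**Figure D2:**
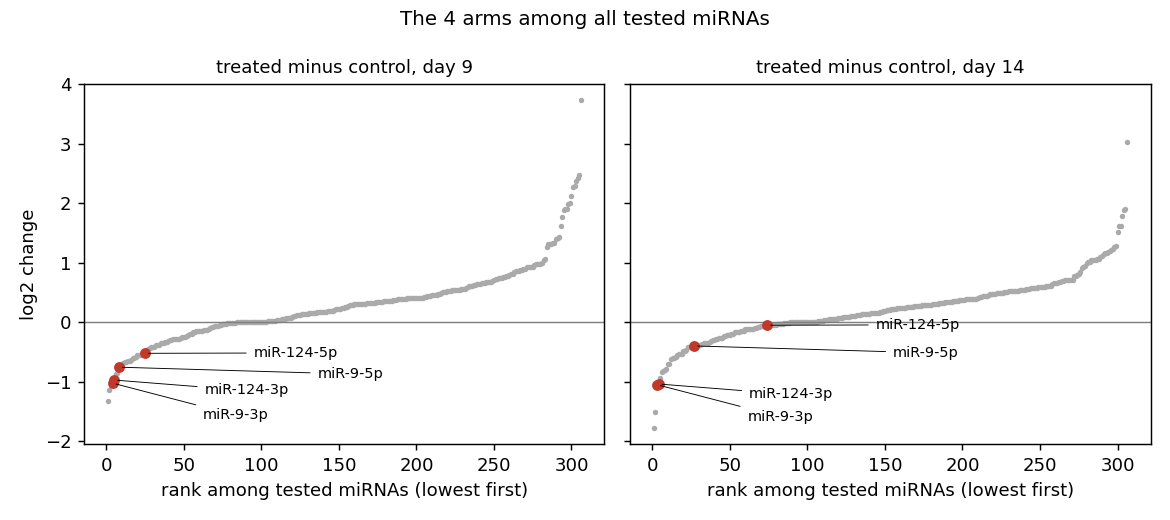
Log2 change of treated minus control (y axis) of all 306 tested miRNAs in order of size (x axis), at day 9 and day 14, with the 4 strands in red. miR-9-3p and miR-124-3p sit among the 5 lowest on both days, and miR-124-5p at day 14 sits close to 0.

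No slide held both conditions at day 9, so slide and treatment could be separated there only through the treated day 14 arrays, which lay on both. With slide as a fixed block the day 9 difference was -0.87 for miR-124-3p (limma adjusted p = 0.00023), -1.0 for miR-9-5p (limma adjusted p = 0.0014) and -1.29 for miR-9-3p (limma adjusted p = 0.0012). At day 14 the 1 treated array on slide 2 stood against the 3 control arrays there. Within that slide the difference was -0.97 for miR-124-3p, -0.56 for miR-9-5p and -1.23 for miR-9-3p (limma adjusted p = 0.0018, 0.038 and 0.0085), where the lone array was assumed to vary like the other groups. All 3 strands thus kept their direction in both checks, and their call with slide as a block. Both checks rest on the 1 treated array on slide 2, so they are not separate from each other. Each also has a second probe, and it gave the same direction as the first in both comparisons of treatment.

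**Figure D3:**
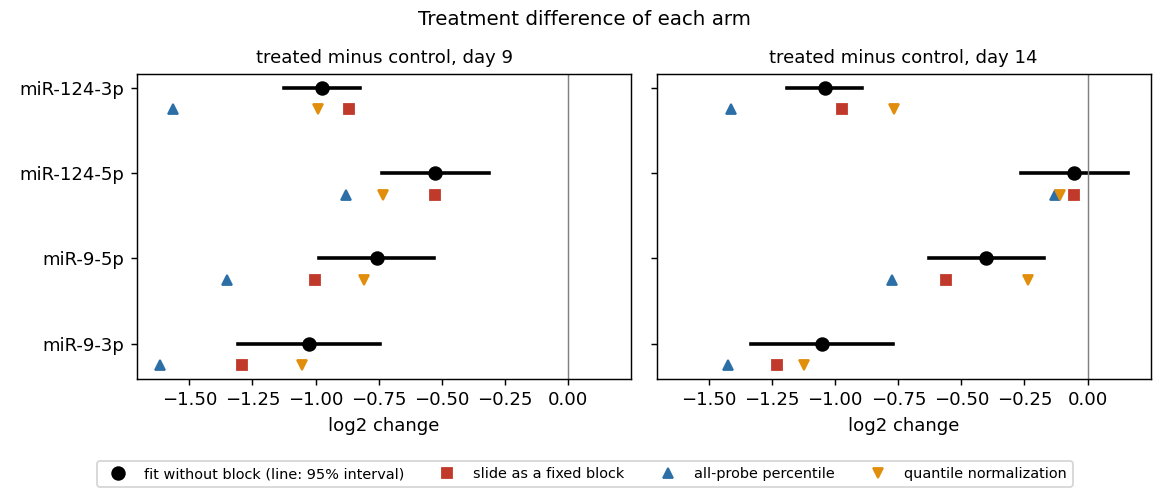
Treated minus control difference (log2, x axis) of each strand at day 9 and day 14; the black point and line are the fitted value and its 95% interval, and coloured marks are the same value with slide as a block or under 2 other scalings. The values of miR-124-3p, miR-9-5p and miR-9-3p are below 0 in every case drawn, from -1.62 to -0.24, and those of miR-124-5p rest on floored signals.

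Whether the treatment difference changed between the days was tested as the day 14 difference minus the day 9 difference, a comparison in which 32.7% of all miRNAs were called in either direction. It was -0.07 for miR-124-3p (95% interval -0.28 to 0.14, limma adjusted p = 0.67) and -0.03 for miR-9-3p (95% interval -0.42 to 0.37, limma adjusted p = 0.94). Quantile normalization turned the sign for miR-124-3p and called it, at 0.23 (limma adjusted p = 0.014). For miR-9-5p the change was 0.36 (95% interval 0.03 to 0.68, limma adjusted p = 0.086) and was not called. It was called in 5 of 29 alternatives, among them the slide block (0.44, limma adjusted p = 0.042) and the fit without replicate 3 of treated day 14, which gave the same value. miR-124-5p was called, at 0.47 (limma adjusted p = 0.019), from treated arrays that were all at the floor.

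The second question was how each strand moved along the course. From day 5 through day 9 to day 14 the mean level of miR-9-5p was 0.52 ± 0.15, 2.06 ± 0.05 and 3.05 ± 0.16 with morphogens, and 0.52 ± 0.15, 2.82 ± 0.10 and 3.45 ± 0.15 without (SD, n = 3; the day 5 arrays are shared). It rose at each step in both conditions. The gain of day 9 over day 5 was 1.54 in treated cells and 2.30 in control cells (SE 0.11), and that of day 14 over day 9 was 0.99 in treated and 0.63 in control cells (SE 0.11). Every one of these steps was called, the least at limma adjusted p = 0.00015. Over the whole course the level at day 14 was 5.76 times that at day 5 in treated cells and 7.61 times in control cells.

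miR-9-3p rose with its partner: day 9 stood above day 5 by 1.33 in treated and 2.36 in control cells, and day 14 above day 9 by 1.29 in treated and 1.31 in control cells (SE 0.13). All of these were called, the least at limma adjusted p = 1.0e-06. At day 14 its level was 6.13 times that of day 5 in treated cells and 12.7 times in control cells.

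miR-124-3p was also called higher at each step in both conditions. In treated cells day 9 stood 0.28 above day 5 (SE 0.07, limma adjusted p = 0.0032) and the arrays did not overlap, but this step was lost with the all-probe percentile (0.05, limma adjusted p = 0.78) and with median scaling (0.16, limma adjusted p = 0.093). In control cells the same step was 1.25 (SE 0.07, limma adjusted p = 1.9e-09). The later step, day 14 over day 9, was 0.93 in treated and 0.99 in control cells (SE 0.07, limma adjusted p = 5.9e-08 and 2.9e-08). At day 14 the level was 2.31 times that of day 5 in treated cells and 4.75 times in control cells.

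Members called higher numbered 3 of 4 in each of these steps, where over all miRNAs 37.6% were called higher in treated day 9 against day 5, 35.3% in treated day 14 against day 9, 23.9% in control day 9 against day 5 and 31.4% in control day 14 against day 9. For day 14 against day 5 they were again 3 of 4, where 47.1% were called higher in treated and 34.3% in control cells. Under the other 3 scalings these 4 step percentages, in the same order, were 25.2% to 30.7%, 28.1% to 32.0%, 29.7% to 35% and 21.6% to 26.1%, and those of the whole course were 30.7% to 35.9% in treated and 31.7% to 39.2% in control cells. miR-124-5p was not among them: it was called lower at day 9 and day 14 against day 5 in treated cells, and at day 14 against day 9 and day 5 in control cells, from values at or near the floor. The treated steps from day 5 to day 9 lie wholly on slide 1 and the control step from day 9 to day 14 wholly on slide 2. With slide as a block the control steps from day 5 were 1.15 for miR-124-3p, 2.54 for miR-9-5p and 2.62 for miR-9-3p, all called.

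Ordered by mean level, the groups ran day 5, treated day 9, treated day 14, control day 9 and control day 14 for miR-124-3p. For both arms of miR-9 the order in these values was day 5, treated day 9, control day 9, treated day 14 and control day 14. Treated day 14 and control day 9 were the one pair of neighbours whose arrays overlapped, for each of these 3 strands. Treated day 14 minus control day 9 was -0.05 for miR-124-3p (SE 0.07), 0.23 for miR-9-5p (SE 0.11) and 0.26 for miR-9-3p (SE 0.13). For both arms of miR-9 the sign of this difference depends on the scaling. Over the scalings, treated minus control at day 9 was -1.35 to -0.76 for miR-9-5p and -1.62 to -1.03 for miR-9-3p. The gain of treated day 14 over day 9 was 0.78 to 1.04 and 1.08 to 1.34. The widest day 9 gap of each arm exceeded every gain, so control day 9 there lay above treated day 14.

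The within-array difference between the arms of miR-9 does not depend on how the arrays were scaled, other than by quantile normalization, and only its change between groups can be read. miR-9-5p minus miR-9-3p was 1.94, 1.68 and 1.83 in treated cells at day 14, against 1.18, 1.31 and 1.01 in control cells. The control day 14 arrays were below every other array, as the 3p strand there had risen by more than the 5p strand. The treated mean exceeded the control mean by 0.65 at day 14 (1.82 ± 0.13 treated and 1.16 ± 0.15 control, SD, n = 3 each; exact permutation p = 0.1, two-sided, the smallest that 3 against 3 allows) and by 0.27 at day 9 (2.12 ± 0.07 treated and 1.85 ± 0.11 control; exact permutation p = 0.1). Day 14 minus day 9 was -0.30 in treated cells and -0.68 in control cells (exact permutation p = 0.1 for each). At day 5 it was 1.90 ± 0.14, and control day 9 minus day 5 was -0.06, within the spread (exact permutation p = 0.5). Adjusted over the 8 comparisons of this quantity, the smallest of these p was 0.16, so none could pass 0.05.

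The same measure between the families set miR-124-3p against miR-9-5p. miR-124-3p minus miR-9-5p was -0.87, -0.94 and -0.56 in treated day 14 cells, against -0.10, -0.20 and -0.14 in control day 14 cells. At day 9 it was -0.74, -0.77 and -0.68 in treated cells, against -0.49, -0.59 and -0.47 in control cells, and at day 5 it was 0.40, 0.44 and 0.75. Both conditions were below day 5 at every later time, since miR-9-5p rose by more than miR-124-3p. The treated mean was below the control mean by 0.22 at day 9 and by 0.64 at day 14, and control day 14 exceeded control day 9 by 0.37 (each exact permutation p = 0.1, two-sided, and 0.11 adjusted over 8 comparisons). In treated cells day 14 minus day 9 was -0.06 (exact permutation p = 0.7), within the spread.

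For the arms of miR-124 the difference of 3p minus 5p cannot be sized, because miR-124-5p was above background on all arrays of 1 group only, control day 9. In control cells the 3p strand was higher at day 14 than at day 9 by 0.99, while the 5p strand was above background on 1 of 3 arrays at day 14, against 3 of 3 at day 9. That step of the 5p strand was called lower (limma adjusted p = 0.00095), but not with a normexp background (limma adjusted p = 0.56) or a floor 4 times higher, which leaves both groups at the floor.

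**Figure D4:**
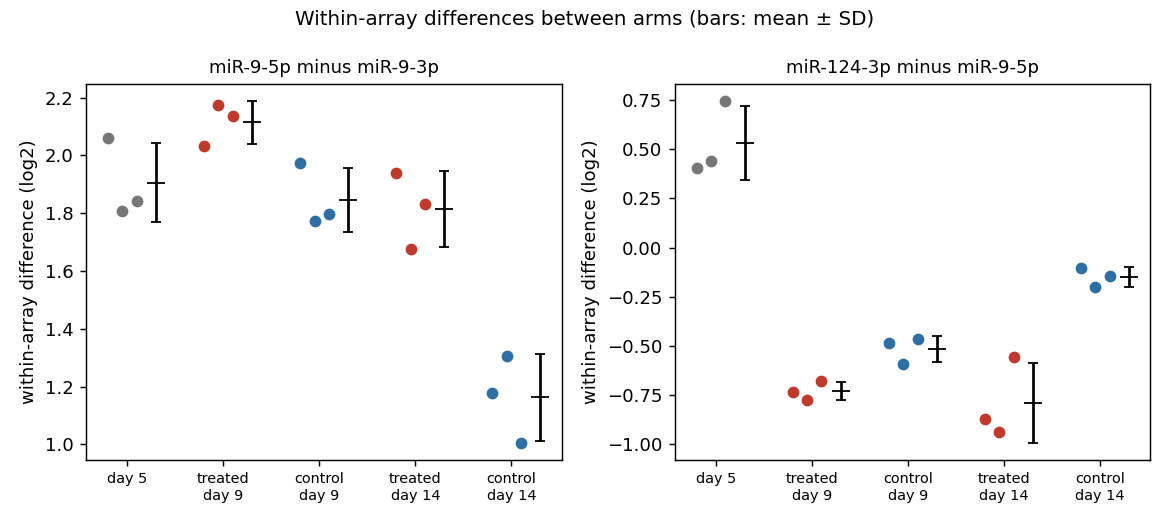
Within-array differences (log2, y axis) between the arms of miR-9 and between miR-124-3p and miR-9-5p, by group (x axis), with mean ± SD (n = 3). For miR-9 the control day 14 arrays, at 1.01 to 1.31, lie under all others, and for miR-124-3p minus miR-9-5p the day 5 arrays, at 0.40 to 0.75, lie over all others.

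The miRNAs with the pattern most like each strand were taken as the 5 with the highest Pearson correlation over the 15 arrays, the 4 strands themselves left out. The arrays share groups, slides and scaling, so r is a description. For miR-9-5p they were miR-181a-5p (0.99) and let-7a-5p, let-7c-5p, let-7f-5p and let-7g-5p (0.98 to 0.99), while miR-9-3p stood at 0.97. For miR-124-3p they were miR-3096-5p (0.97), miR-128-3p, miR-331-3p, let-7i-5p and miR-129-1-3p (0.95 each), while miR-9-3p stood at 0.96 and miR-9-5p at 0.89. The median r of all other tested miRNAs was -0.03 to miR-9-5p and -0.21 to miR-124-3p. Some of the listed r rest partly on floored values. miR-129-1-3p was above background on 0 arrays at day 5 and treated day 9, and let-7i-5p and let-7g-5p on 0 at day 5. Under the other 3 scalings 4 or 5 of the 5 stayed the same for miR-9-5p and 2 or 3 of the 5 for miR-124-3p. The let-7 strands differ from each other in few letters, so probes may read them in common, and they are shown with miR-181a-5p because none has the seed of miR-9-5p (capitals as above).
miR-181a-5p: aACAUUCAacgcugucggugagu
let-7a-5p: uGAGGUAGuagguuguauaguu
let-7c-5p: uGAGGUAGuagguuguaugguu
let-7f-5p: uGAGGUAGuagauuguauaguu
let-7g-5p: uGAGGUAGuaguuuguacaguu
The 4 let-7 strands share 1 seed, GAGGUAG, which is neither that of miR-181a-5p nor that of an arm of miR-9.

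**Figure D5:**
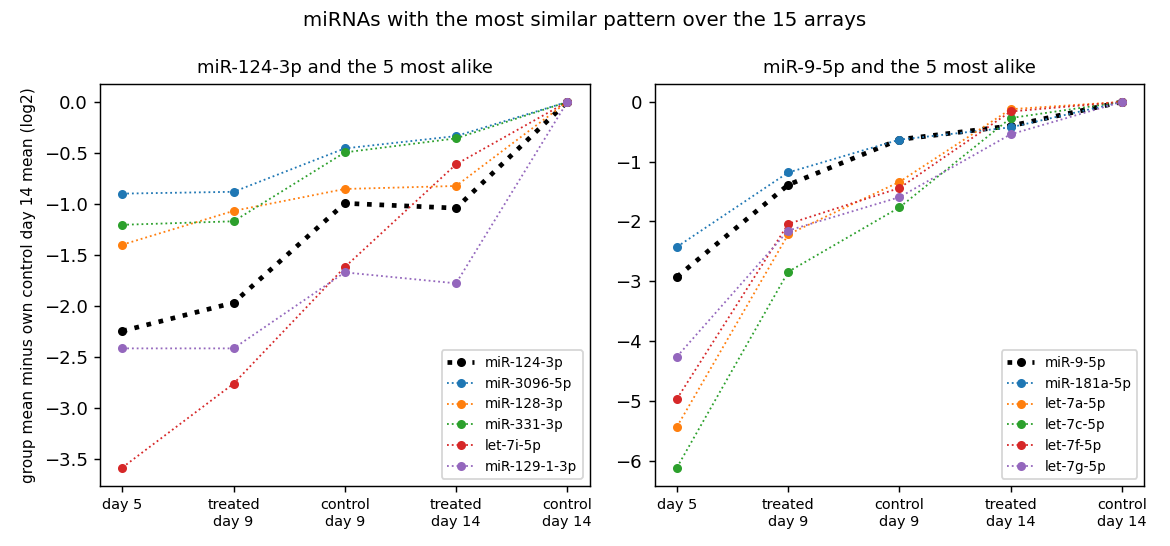
Mean log2 level of each group less the same miRNA's control day 14 mean (y axis), by group (x axis), for miR-124-3p and miR-9-5p (black) and the 5 miRNAs most like each; dotted lines only join the points of 1 miRNA. miR-9-5p and miR-181a-5p climb over a similar range, while let-7a-5p, let-7c-5p and let-7f-5p start near the floor at day 5.

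Other neuronal miRNAs did not move as one with miR-124. Of 12 tested (13 listed), 4 were called higher and 2 lower in treated cells at day 9, with a median log2 difference of 0 against 0.25 for all 306 miRNAs, of which 40.5% were called higher and 15% lower. At day 14, 2 were higher and 8 lower, with a median of -0.39 against 0.21 for all, of which 38.9% were called higher and 14.4% lower. Over the other 3 scalings 4 were higher and 2 or 3 lower at day 9, and 2 higher and 9 lower at day 14. Fewer were detected at day 9: 6 to 9 of the 13 on treated and 7 on control arrays, against 11 to 12 and 12 to 13 at day 14. miR-129-5p and miR-138-5p were at the floor in both day 9 groups and could not be called there. The counts of the 2 days thus do not compare the same detected miRNAs. Set against control cells of the same day, the activity-induced pair miR-132-3p and miR-212-3p, made from a shared locus, was higher in treated cells at day 9 by 2.27 and 2.42, and miR-212-3p by 1.23 at day 14. At day 14 miR-132-3p ran the other way, with a mean of -2.87 ± 0.12 in treated and -2.08 ± 0.15 in control cells (SD, n = 3). miR-7a-5p, known for lowering alpha-synuclein, was higher at day 9 by 0.99, and miR-218-5p, a miRNA of motor and midbrain neurons, was higher at day 14 by 1.27. The mean of miR-218-5p was also higher in treated cells at day 9, at -0.49 ± 0.08, against -1.39 ± 0.06 in control cells (SD, n = 3). miR-137-3p, a regulator of neuronal maturation, was called lower at day 9, where its 3 treated arrays were at the floor (1 of 3 above background), against a mean of -2.94 ± 0.21 in control cells (SD, n = 3). At day 14 miR-129-5p and miR-138-5p, both enriched in brain, differed by -1.52 and -0.94. The limma adjusted p was at most 0.0014 for all of these but miR-132-3p at day 14 and miR-218-5p at day 9, given as means only.

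Among the neural progenitor miRNAs 10 of 11 were tested, and 1 was called higher and 3 lower in treated than in control cells at day 9 (median -0.01), against 40.5% and 15% of all miRNAs. At day 14, 5 were higher and 3 lower (median 0.10), against 38.9% and 14.4% of all. These counts depend on the scaling: with the all-probe percentile they were 1 higher and 9 lower at day 9 (median -0.60) and 1 higher and 5 lower at day 14 (median -0.27). At day 9 miR-135a-5p was higher by 1.26, while miR-181b-5p differed by -0.66, miR-181a-5p by -0.55 and miR-125b-5p by -0.30, the last not called with quantile normalization (limma adjusted p = 0.18). At day 14 miR-92b-3p was higher by 1.05, miR-135a-5p by 0.67 and miR-99b-5p by 0.52, and miR-135b-5p differed by -0.53 (limma adjusted p at most 0.026 for all of these). With the all-probe percentile miR-135a-5p and miR-99b-5p were not called at day 14 (0.29 and 0.14, limma adjusted p = 0.15 and 0.56). The let-7 family is low in the early embryo and accumulates as cells differentiate. At day 9, 8 of 9 were called lower in treated than in control cells, with a median of -0.64, against 15% of all miRNAs, and at day 14, 5 of 9, with a median of -0.27, against 14.4%. Over the other 3 scalings 8 of 9 were lower at day 9 and 5 or 7 of 9 at day 14, where the share of all miRNAs called lower reached 39.5% and 25.2% with the all-probe percentile. Called higher in limma were 0 on both days, also at an unadjusted p under 0.05. Treated minus control was -1.14 for let-7i-5p, -1.08 for let-7c-5p, -0.88 for let-7a-5p and -0.73 for let-7b-5p at day 9 (limma adjusted p at most 0.00018). At day 14 it was -0.61 for let-7i-5p, -0.54 for let-7g-5p, -0.40 for let-7b-5p and -0.30 for let-7d-5p (limma adjusted p at most 0.010).

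Markers of other cells were set beside the lower miR-124-3p and miR-9 of treated cells, and their part in that result was not tested. Of the 2 glial miRNAs both were called higher in treated than in control cells at day 9, miR-219-5p by 1.34 and miR-338-3p by 0.63, and at day 14 miR-219-5p was higher by 0.78 and miR-338-3p differed by -0.41. The day 9 call of miR-338-3p was lost with the all-probe percentile (0.04, limma adjusted p = 0.80) and quantile normalization (0.12, limma adjusted p = 0.23). Their summed scaled signal was 4.73 to 5.01 in treated and 1.73 to 2.11 in control cells at day 9, and 2.25 to 2.94 in treated and 1.56 to 1.62 in control cells at day 14. In day 5 cells, before any morphogen, that sum was already 3.03 to 3.58, above both control groups and treated day 14. There miR-219-5p had a mean log2 level of 1.68 and miR-338-3p one of -3.58. The sum therefore cannot be read as a measure of glial cells alone. Of 6 mesenchymal miRNAs 2 were tested and both were called higher on both days. miR-21-5p was higher by 1.05 at day 9 and by 0.69 at day 14 (0.31 and not called with the all-probe percentile, limma adjusted p = 0.10). miR-199a-3p was above background on every treated array of both days but on 0 control and 0 day 5 arrays. It was tested only because of its treated arrays, so that its calls are not separate support. The mesenchymal sum was 1.71 to 1.92 in treated and 0.95 to 1.02 in control cells at day 9, and 1.17 to 1.26 in treated and 0.81 to 0.87 in control cells at day 14. With every miRNA at the floor the glial sum would be 0.104 and the mesenchymal sum 0.311. The markers miR-143-3p, miR-145-5p and miR-214-3p were above background on 0 of 15 arrays, as were all 4 muscle, all 4 blood and endothelial and all 6 epithelial miRNAs. Of the pluripotency miRNAs 7 of 10 were tested, and 1, miR-290-5p, was called higher in treated cells at day 9, at a mean of -3.55 ± 0.11, against -4.10 ± 0.30 in control cells (SD, n = 3 each), which were above background on 1 of 3 arrays. That call was lost under each of the other 3 scalings (limma adjusted p at least 0.055), and 0 were called at day 14 in limma, where 1 had an unadjusted p under 0.05.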

How the data were processed

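Small RNA from the 5 groups was labelled with Cy3 and hybridised to Agilent mouse miRNA arrays, per the labels' protocols. The deposited scanner tables hold spot intensity from Feature Extraction 11.0.1.1, background-subtracted and not normalized between arrays, per the file headers. The other deposited columns used, per the file headers, are flags of the scanner software, 0 or 1, for background, saturation and outliers. The submitters' processing notes list limma 3.20.9, with no step named for it. The deposited value table, also intensity, matched the mean of the scanner spots within 0.1% for 73.4% to 83.7% of probes in 14 columns, so its scale is linear and not centred, and the remaining column, treated day 14 replicate 2, repeated replicate 1 for 86.1% of probes and was dropped where that table was used.

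Spots that were not outliers were averaged per probe (20 spots for each member). A probe was above background when at least 50% of these spots carried the flag. Arrays were divided by the 75th percentile over the 353 probes above background on all 15 arrays (149 to 337 units), raised to the floor and taken as log2. This floor is the median over arrays of the lowest signal above background. Values at the floor have no order. "At least" folds compare a bright group with that lowest signal, or the floor if higher, on the dim arrays. Each miRNA was read from its brightest probe, and 306 of 1122, above background on all arrays of a group, were tested in limma 3.58.1 (R 4.3.3) over all 5 groups (10 residual and 3.06 prior degrees of freedom), two-sided, with Benjamini-Hochberg adjustment over the 306 and calls under 0.05. Within-array differences used exact permutation tests. The number of arrays limits the precision. The fit was tested on simulated data. Alternatives were other scalings, a normexp background with an offset of 50 on the median spot signal (the mean signal was not used), floor, filter and probe choices, slide and replicate blocks, and leaving out each array; values within a slide and the scanner software's summed gene signal were added after the data were seen. The named miRNAs are the 4 members, up to 4 called miRNAs of each list with the largest change on each day, and the 5 most correlated with miR-124-3p and with miR-9-5p. Members and lists were chosen with earlier results of these data known. Figures were drawn with matplotlib in Python.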

Additional observations from a re-analysis of the deposited data

Results flagged for a closer look

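For miR-124-5p the treated minus control difference at day 14 exceeded that at day 9 by 0.47 (log2, SE 0.14, limma adjusted p = 0.019), which the test of that difference called. The value rests on control day 9, the one group with 3 of 3 arrays above background: at both days the 6 treated arrays were at the floor. It was 0 with a floor 4 times higher and 0.07 with a normexp background (limma adjusted p = 0.86), and over 28 alternatives it was called in 23.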

How the results depend on the processing

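The directions of miR-124-3p, miR-9-5p and miR-9-3p in treated against control cells held in all 29 alternatives at day 9 and all 30 at day 14, and the calls in all but 1, that of miR-9-5p at day 14 with quantile normalization (-0.24). The number of members whose treatment difference changed between days was 1; it was 2 with the all-probe percentile, the slide block and the replicate block, 3 with quantile normalization, and 0 with a normexp background, the higher floor, miRNAs above background on all 15 arrays, no filter, or the mean of probes, and 0 to 2 with 1 array left out (2 without treated day 14 replicate 3, 0 without control day 9 replicate 1). The last filter leaves miR-124-5p out by construction; otherwise the cause was not tested. Left-out arrays left 3 or 4 of 4 members called in control day 14 against day 5 (3 without day 5 replicate 1).

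For single strands, that change between days turned to 0.15, 0.23 and 0.014 for miR-124-3p with the all-probe percentile, quantile normalization and median scaling. For miR-9-3p it turned to 0.19, 0.054 and 0.062 with the all-probe percentile, median scaling and the slide block, and ranged from -0.18 to 0.062 with 1 array left out, turning to 0.0069, 0.037, 0.062, 0.050 and 0.051 without treated day 9 replicate 1, treated day 14 replicates 1 and 3, control day 9 replicate 1 and control day 14 replicate 3. For miR-124-5p, control day 9 against day 5 turned to -0.16 with normexp, and treated against control at day 14 to 0.13 with the summed gene signal.

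The miR-9 arm difference turned to 0.078 (quantile) and 0.38 (normexp) in treated day 14 against day 5, and to 0.11 and 0.37 in control day 9 against day 5, where leaving out 1 array gave -0.12 to 0.020. miR-124-3p minus miR-9-5p in treated day 14 against day 9 turned to 0.18 with quantile normalization and 0.0072 with the deposited table, and ranged from -0.17 to 0.015 with 1 array left out. The summed gene signal turned the miR-124 arm difference to 1.05 in treated against control at day 9 and to -0.27 in treated day 14 against day 9. The cause of these was not tested.

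Replicate numbers did not pair the arrays: same-numbered deviations correlated at -0.57 to 0.53. With replicate as a block, miR-9-5p was also called for the change between days (0.36, limma adjusted p = 0.048), and 4 members at day 9, with miR-124-5p, and 3 at day 14 were called lower in treated cells. Signal over background limits miR-124-5p.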
